A study of Mus musculus with 9 samples.

Results

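The interferon regulatory factors (IRFs) are the transcription factors that turn receptor signals into interferon and interferon-response gene expression, and 8 of their genes, *Irf1*, *Irf2*, *Irf3*, *Irf4*, *Irf5*, *Irf7*, *Irf8* and *Irf9*, are described here in bone marrow-derived dendritic cells (DCs). They were taken by gene symbol from a matrix of 55471 genes, where each of the 8 symbols occurred once, and all 8 were among the 16260 genes with enough counts to be tested. Dendritic cells were grown from wild-type female C57BL/6 bone marrow (mice of 8 to 20 weeks) with 20 ng/mL of the growth factor GM-CSF, and were left unstimulated, given the bacterial cell wall component LPS at 100 ng/mL, or given the antiviral cytokine IFN-β at 1000 U/mL, for 6 h. RNA-seq was done on 3 libraries per condition, which the labels letter A, B and C, and all 9 share the strain and the GM-CSF. GM-CSF cultures are a mixture of dendritic and macrophage-like cells and not a sorted cell type.

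All IRF proteins share a DNA-binding domain that recognises variants of a GAAA-containing element, named the interferon-stimulated response element (ISRE). IRF3, IRF5 and IRF7 are held inactive in the cytosol until kinases downstream of pattern-recognition receptors phosphorylate them, whereas IRF9 binds DNA as part of the complex ISGF3 once the type I interferon receptor signals. IRF1 activates and IRF2 mostly restrains overlapping sets of genes, and IRF4 and IRF8 bind weakly alone, pair with ETS or AP-1 proteins, and are required for different dendritic cell subsets. Because phosphorylation of these proteins does not change their mRNA, the values below are transcript levels and not measures of IRF activity.

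Total counts ranged from 33425803 to 43735199 per library. Dendritic cell markers (*Itgax*, *H2-Ab1*, *Cd74*, *Flt3*, *Zbtb46*, *Dpp4* and *Ccr7*) summed to 4340 to 5187 CPM (read counts scaled to a common library total) in unstimulated libraries, 6101 to 6746 CPM with LPS and 4865 to 5146 CPM with IFN-β. Monocyte and macrophage markers summed to 1452 to 1800, 1879 to 2381 and 2084 to 2416 CPM, and were thus higher in every stimulated library. The dendritic cell sum was likewise higher in every LPS library. These sums stand beside all member values below, and their part in those values was not tested. Neutrophil markers summed to 9.45 to 24.7 CPM, with *Ly6g*, *Elane* and *Mpo* under 1 CPM, those of mast cells and basophils to 0.398 to 1.20 CPM, while the markers of B, T and NK cells were each under 1 CPM in every library. Levels are given as CPM after scaling by TMM factors, which assume that most genes do not change. If only library size was used, without those factors, the median over all tested genes shifted by -0.58 (log2) for LPS, by -0.31 for IFN-β and by 0.27 for IFN-β against LPS. The changes below are thus relative to the typical gene of a library.

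At the level of single genes, LPS changed 7 of the 8 IRF genes and IFN-β changed 7 of the 8, with 6 higher and 1 lower in each. These counts are read against a background of 68.2% of all tested genes past the same threshold (adjusted p under 0.05, edgeR quasi-likelihood test with Benjamini-Hochberg adjustment) for LPS, 32.8% higher and 35.4% lower, and 46.9% for IFN-β, 23.6% higher and 23.3% lower. The median log2 fold change of the 8 genes was 0.95 under LPS, against -0.04 over all tested genes, and 0.75 under IFN-β, against -0.02. When the 2 stimuli were set against each other, 3 of 8 differed, with 1 higher and 2 lower in IFN-β, beside 49.1% of all tested genes, 25.8% higher and 23.3% lower. With library size alone the split was 4 higher and 3 lower for LPS, 5 higher and 1 lower for IFN-β, and 3 higher and 1 lower between the stimuli, and with the letters as a replicate block it was 1 higher and 3 lower between the stimuli. Both stimulus comparisons share the unstimulated libraries.

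**Figure D1:**
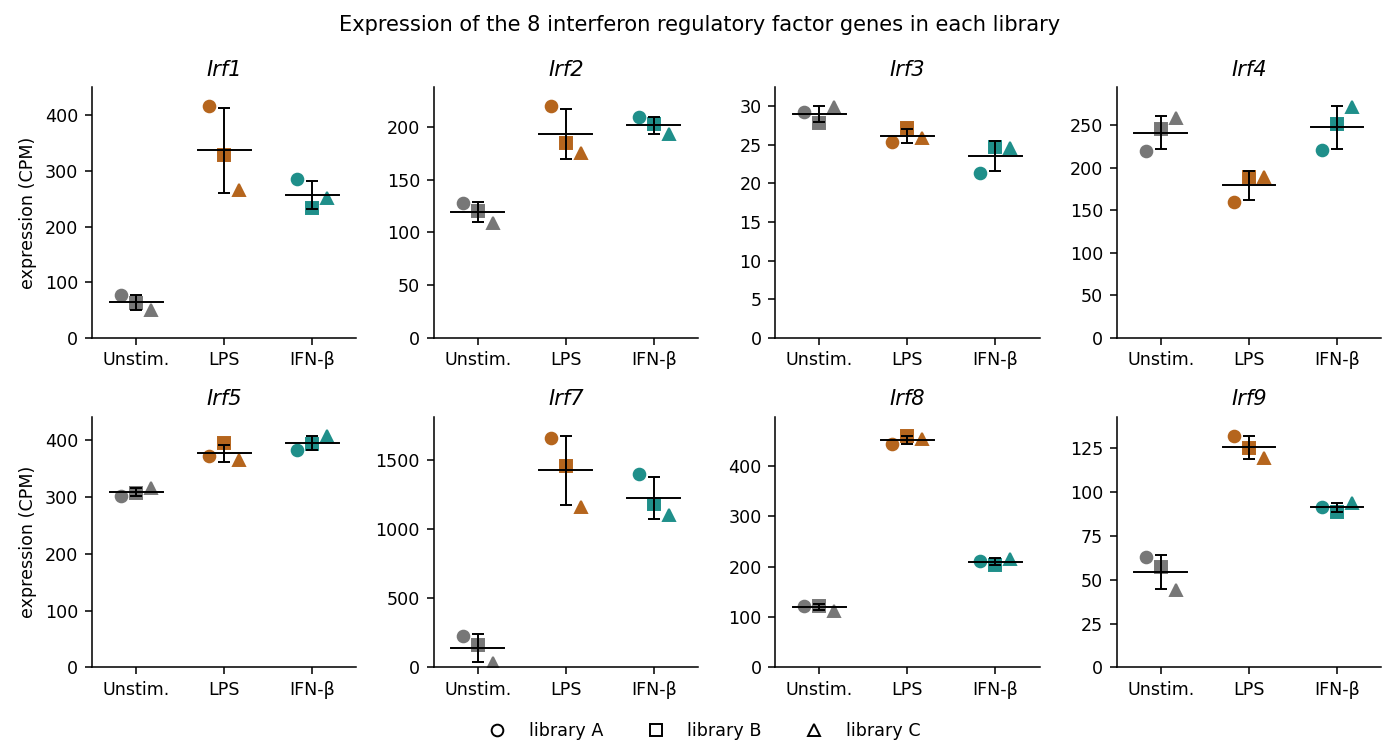
Expression of each of the 8 genes in CPM (y axis, from 0, a separate scale for each gene) in the 3 unstimulated, 3 LPS and 3 IFN-β libraries. Symbols mark the library letter, horizontal lines the group mean and error bars 1 SD (n = 3), and *Irf7* rose from 33.3 to 228 CPM in unstimulated libraries to at least 1102 CPM in every stimulated one.

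*Irf3* was low in every library and fell under IFN-β. IRF3 is the constitutive IRF that TBK1 phosphorylates downstream of TLR4 and that starts *Ifnb1* transcription. *Irf3* (ENSMUSG00000003184, chr7:44997648-45002848, plus strand) stood at 29.2, 27.8 and 29.9 CPM in the unstimulated libraries, at 25.4, 27.2 and 25.9 CPM with LPS and at 21.3, 24.7 and 24.6 CPM with IFN-β. All 6 stimulated libraries were below all 3 unstimulated ones. The log2 fold change was -0.30 (SE 0.08, adjusted p = 0.00729, edgeR quasi-likelihood test, as for the adjusted p-values that follow) under IFN-β, and -0.14 (SE 0.08, adjusted p = 0.11) under LPS, where the interval of 2 SE either side ran from -0.30 to 0.01. The LPS value passed the threshold with library size alone (-0.73, adjusted p = 2.1e-05) and with upper-quartile factors (-0.24, adjusted p = 0.025). Because RNA was pooled over many cells, a smaller share of cells with the transcript and less transcript per cell cannot be told apart here or for any gene that follows. Exons of *Irf3* share 88 bases (2.56%) with the opposite-strand gene *Bcl2l12*, and the strand setting behind the counts is not given in the sources used here.

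*Irf7* had the largest fold change of the 8 under either stimulus. IRF7 is the interferon-inducible relative of IRF3 that amplifies type I interferon production. The gene (ENSMUSG00000025498, chr7:141262706-141266481, minus strand) was at 228, 161 and 33.3 CPM in unstimulated libraries A, B and C, at 1658, 1452 and 1160 CPM with LPS and at 1394, 1180 and 1102 CPM with IFN-β. The stimulated groups lay far above every unstimulated library and overlapped each other. Transcript was 10.1-fold higher with LPS (log2 fold change 3.34, SE 0.53, adjusted p = 0.00021) and 8.70-fold higher with IFN-β (log2 fold change 3.12, SE 0.52, adjusted p = 0.00072), and the 2 stimuli were not separated from each other (log2 difference -0.22, SE 0.48, adjusted p = 0.737, 2 SE interval -1.18 to 0.75).

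The spread of *Irf7* among unstimulated libraries was large. Library C held 1474 *Irf7* reads, against 9007 and 7184 in A and B, a difference of -2.76 on the log2 CPM scale from A. The SD of log2 expression was 1.47, against a median of 0.08 over 9644 genes of mean expression of 5 CPM or more, and only 4 of those genes had a larger one. Those 4, named after their values were seen, were *Mir6236* (1.73), *Ms4a4c* (1.69), *Arhgef10l* (1.58) and *Hpgds* (1.55), and each was highest in A and lowest in C. *Irf1* and *Irf9* were likewise lowest in unstimulated library C, with SDs of 0.31 and 0.27, whereas *Irf5* varied little (0.03).

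Other interferon-response genes were also low in that library. For a list of 12 genes with known ISREs, summed expression was 844, 642 and 392 CPM in unstimulated libraries A, B and C, and 12 of 12 were lower in C than in A (median log2 difference -1.38, against -0.01 over all tested genes). With stimulation the same list reached 36576, 28050 and 29884 CPM (LPS) and 12744, 10204 and 11828 CPM (IFN-β). Whether this difference contributed to the spread of *Irf7* was not tested. Without unstimulated library C the log2 fold change of *Irf7* was 2.86 for LPS and 2.65 for IFN-β, and within same-letter libraries the LPS response was 2.86, 3.17 and 5.12 for A, B and C and the IFN-β response 2.61, 2.87 and 5.05. All 3 letters gave a response, the one of letter C being the largest for both stimuli.

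**Figure D2:**
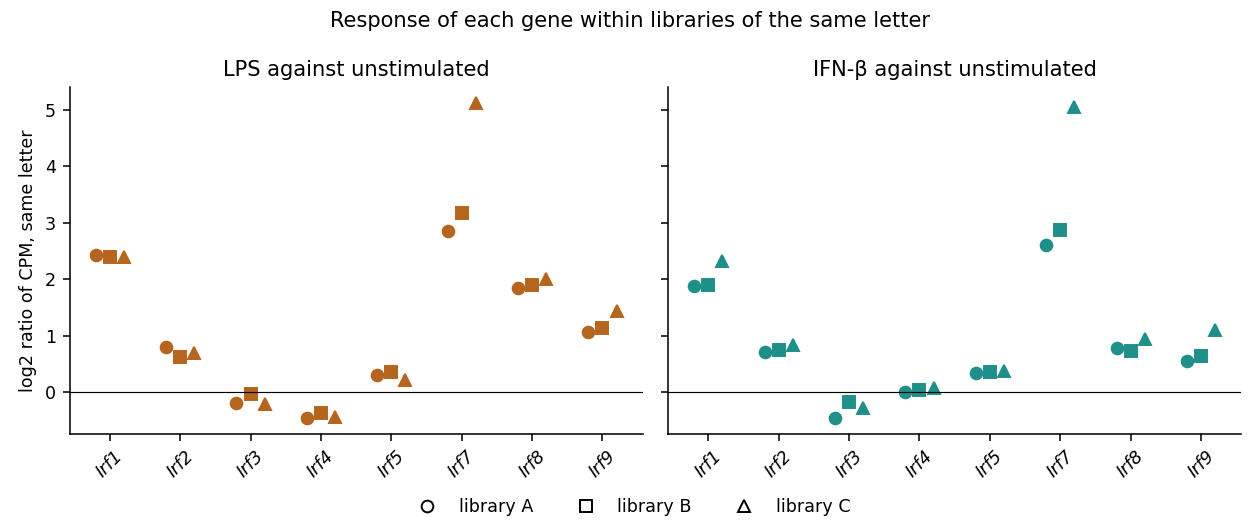
Log2 ratio of CPM between a stimulated library and the unstimulated library of the same letter (y axis) for each gene (x axis), with LPS at left and IFN-β at right and the library letter as symbol. For *Irf7* letter C reached 5.12 and 5.05, apart from A and B, while for *Irf8* the letters ranged from 1.85 to 2.01 with LPS and from 0.73 to 0.94 with IFN-β.

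The promoter of *Irf7* is printed beside those of *Irf1*, *Irf2* and *Irf8* to show the bases just before the start site of the most induced gene and of the 3 genes that held a searched motif. RefSeq promoters of build GRCm38.p6 were found for all 8 genes (11 start sites), and the 250 bases before each start were searched on both strands for the ISRE core GAAANNGAA, the gamma-activated site (GAS) TTCNNNGAA, the ETS-IRF composite core GGAANNGAA, and the kappa-B consensus bound by NF-κB. Each is written 5′ to 3′ along the gene, in lower case with matches in capitals.
Irf1 (chr11:53769764-53770013, plus strand): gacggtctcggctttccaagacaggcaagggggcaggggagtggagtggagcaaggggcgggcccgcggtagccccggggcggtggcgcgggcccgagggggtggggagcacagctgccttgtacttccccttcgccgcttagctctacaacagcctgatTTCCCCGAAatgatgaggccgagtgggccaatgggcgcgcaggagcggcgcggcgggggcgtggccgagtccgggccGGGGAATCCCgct
Irf2 (chr8:46739495-46739744, plus strand): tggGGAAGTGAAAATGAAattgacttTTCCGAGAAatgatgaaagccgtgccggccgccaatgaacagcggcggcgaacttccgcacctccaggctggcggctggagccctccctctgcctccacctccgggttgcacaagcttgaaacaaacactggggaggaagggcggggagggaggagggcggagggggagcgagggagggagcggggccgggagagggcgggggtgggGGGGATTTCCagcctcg
Irf8 (chr8:120736108-120736357, plus strand): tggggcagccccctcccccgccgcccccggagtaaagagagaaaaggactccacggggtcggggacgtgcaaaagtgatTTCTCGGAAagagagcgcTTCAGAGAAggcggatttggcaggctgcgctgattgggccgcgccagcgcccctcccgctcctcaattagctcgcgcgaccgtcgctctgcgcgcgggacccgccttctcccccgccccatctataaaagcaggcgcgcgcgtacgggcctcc
Irf7 (chr7:141266425-141266674, minus strand): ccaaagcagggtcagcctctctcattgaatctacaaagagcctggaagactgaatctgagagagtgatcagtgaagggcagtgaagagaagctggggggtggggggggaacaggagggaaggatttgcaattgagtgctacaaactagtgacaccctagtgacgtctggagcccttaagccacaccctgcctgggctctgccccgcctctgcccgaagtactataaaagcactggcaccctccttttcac
*Irf1* held a GAS that begins 90 bases before the start and a kappa-B match that begins 13 bases before it, *Irf8* held a GAS at 171 and another at 153 bases before the start, and *Irf2* held a GAS at 224, a kappa-B match at 17, and overlapping ETS-IRF and ISRE cores at 247 and 241. Over all 32851 promoters of the table, 7.13% held the ISRE core, 7.02% the GAS, 6.99% the ETS-IRF core and 7.25% a kappa-B match. *Irf3*, *Irf4*, *Irf5*, *Irf7* and *Irf9* held none of these letters in the window, and so did the other listed start of *Irf1*, *Irf8* and *Irf9*. A match is a description of the sequence and not evidence of binding.

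*Irf5* was the most abundant member before stimulation and changed little in size. IRF5 is activated through MyD88 and is linked to inflammatory cytokine genes. *Irf5* (ENSMUSG00000029771, chr6:29526625-29541871, plus strand) was at 302, 307 and 316 CPM in unstimulated libraries, at 372, 394 and 365 CPM with LPS and at 383, 393 and 408 CPM with IFN-β. Both stimulated groups were above every unstimulated library and overlapped each other. It rose under LPS (log2 fold change 0.29, SE 0.06, adjusted p = 0.00199) but fell to -0.29 (adjusted p = 0.00336) when library size alone was used for scaling, whereas relative to the median of all tested genes it was 0.33 higher under either scaling. Under IFN-β it rose by 0.36 (SE 0.06, adjusted p = 0.00111), which was 0.05 (adjusted p = 0.584) with library size alone and 0.37 relative to the median. Exons of *Irf5* share 411 bases (14.1%) with the opposite-strand gene *Tnpo3*, which had mean counts of 3249 unstimulated, 2463 with LPS and 2550 with IFN-β, and its part in the *Irf5* counts was not tested.

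*Irf9*, the DNA-binding subunit of ISGF3, rose with both stimuli, further under LPS. The gene (ENSMUSG00000002325, chr14:55603571-55610030, plus strand) was at 62.8, 57.1 and 43.9 CPM unstimulated, at 132, 125 and 119 CPM with LPS and at 91.2, 88.7 and 93.6 CPM with IFN-β. The 3 groups did not overlap. The log2 fold change was 1.20 (SE 0.11, adjusted p = 3.6e-06) under LPS and 0.74 (SE 0.11, adjusted p = 0.00035) under IFN-β, and the direct difference was -0.46 (SE 0.11, adjusted p = 0.00565), which with library size alone was -0.18 (adjusted p = 0.124). The same-strand gene *Rnf31* shares 123 exonic bases (2.28%) with *Irf9* and its mean count rose from 1644 to 4883 with LPS and to 4031 with IFN-β. How reads in that stretch were assigned was not tested.

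*Stat2*, whose product joins IRF9 in ISGF3, went from 182 to 1019 CPM with LPS (log2 fold change 2.48, SE 0.20, adjusted p = 1.2e-06) and to 809 CPM with IFN-β (2.15, SE 0.20, adjusted p = 1.5e-05). It thus rose under both stimuli, as *Irf9* did. Between IFN-β and LPS the *Stat2* difference did not pass the threshold (-0.33, SE 0.19, adjusted p = 0.176, with a replicate block 0.0459).

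*Irf1*, an activator of antigen presentation and antimicrobial genes, rose strongly under both stimuli. The gene (ENSMUSG00000018899, chr11:53770014-53778374, plus strand) was at 77.8, 62.7 and 50.3 CPM unstimulated, at 417, 328 and 266 CPM with LPS and at 285, 234 and 251 CPM with IFN-β. All stimulated libraries were above the unstimulated ones, while the LPS and IFN-β groups overlapped. The change was 5.29-fold with LPS (log2 fold change 2.40, SE 0.19, adjusted p = 8.7e-07) and 4.04-fold with IFN-β (2.01, SE 0.18, adjusted p = 1.4e-05). The difference between stimuli was -0.39 (SE 0.18, adjusted p = 0.091) and passed the threshold when the letters were entered as a replicate block (-0.37, SE 0.08, adjusted p = 0.00196). It also passed without LPS library C (-0.54, adjusted p = 0.0284) and was -0.22 (adjusted p = 0.323) without LPS library A. Within same-letter libraries it was -0.55, -0.49 and -0.08 for letters A, B and C. Exons of *Irf1* share 135 bases (3.40%) with the opposite-strand gene *Gm17334*.

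*Irf2*, the relative of IRF1 that mostly restrains the same genes, moved less. *Irf2* (ENSMUSG00000031627, chr8:46739732-46847458, plus strand) was at 128, 120 and 109 CPM unstimulated, at 220, 185 and 175 CPM with LPS and at 209, 203 and 193 CPM with IFN-β. Both stimulated groups were above the unstimulated one and overlapped each other. It rose by 0.70 (SE 0.09, adjusted p = 5.6e-05) under LPS, although with library size alone that was 0.12 (adjusted p = 0.173), and by 0.76 (SE 0.09, adjusted p = 9.6e-05) under IFN-β. No difference between stimuli passed the test (0.06, adjusted p = 0.616).

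The count ratio of *Irf1* to *Irf2*, which does not depend on scaling, changed in favour of *Irf1*. It was 0.609, 0.521 and 0.461 in unstimulated libraries, 1.89, 1.77 and 1.52 with LPS and 1.36, 1.15 and 1.30 with IFN-β. *Irf2* reads thus exceeded *Irf1* reads in every unstimulated library and the reverse held in every stimulated one, with no overlap between any groups. The log2 difference was 1.71 under LPS, 1.27 under IFN-β and -0.44 between IFN-β and LPS, each with an exact two-sided permutation p = 0.1 (0.113 adjusted over the 9 ratio comparisons), the smallest that 3 libraries against 3 allow. Counts are not corrected for length, and per kilobase of exon the unstimulated means were 16.1 (*Irf2*) and 16.0 (*Irf1*). Per kilobase, *Irf1* was the higher in unstimulated library A (19.6 against 17.3) and *Irf2* in B and C.

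*Irf4* and *Irf8* took opposite courses under LPS. *Irf4* (ENSMUSG00000021356, chr13:30749226-30766976, plus strand), required for the dendritic cell subset cDC2, was at 220, 245 and 259 CPM unstimulated, at 160, 189 and 189 CPM with LPS and at 221, 251 and 271 CPM with IFN-β. All LPS libraries were below all others, and the IFN-β and unstimulated groups overlapped. It fell under LPS (-0.43, SE 0.10, adjusted p = 0.00283) and its change under IFN-β was 0.04 (SE 0.10, adjusted p = 0.789, 2 SE interval -0.16 to 0.24), with a difference of 0.47 (SE 0.10, adjusted p = 0.00287) between the stimuli.

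*Irf8* (ENSMUSG00000041515, chr8:120736358-120756694, plus strand), needed for cDC1 and plasmacytoid dendritic cells, was at 123, 123 and 113 CPM unstimulated, at 444, 460 and 453 CPM with LPS and at 211, 204 and 216 CPM with IFN-β. The groups did not overlap and libraries within each were close. It rose 3.78-fold with LPS (log2 fold change 1.92, SE 0.07, adjusted p = 4.8e-09) and 1.76-fold with IFN-β (0.81, SE 0.06, adjusted p = 5.5e-06), and was 1.11 lower on the log2 scale in IFN-β than in LPS (SE 0.06, adjusted p = 3.1e-07).

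**Figure D3:**
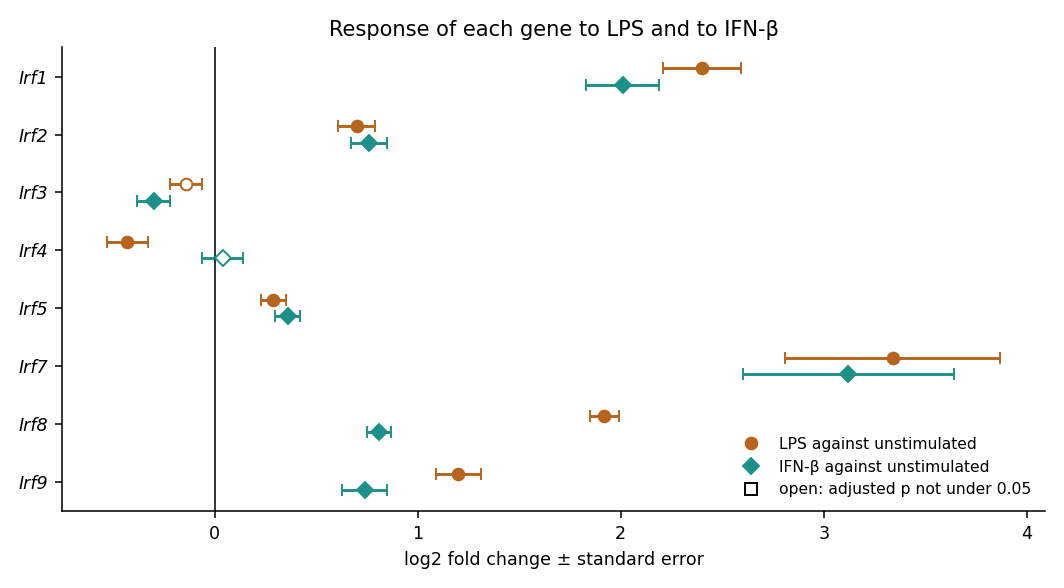
Log2 fold change of each of the 8 genes (x axis) under LPS (circles) and IFN-β (diamonds) against unstimulated libraries, with standard errors from the edgeR fit and open symbols where the adjusted p was not under 0.05. *Irf8*, at 1.92 and 0.81, was the gene whose responses to LPS and IFN-β were farthest apart, while *Irf2*, *Irf5* and *Irf7* had overlapping error bars for the 2 stimuli.

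Markers of the subsets in which IRF4 and IRF8 act also differed between conditions. The 4 plasmacytoid dendritic cell markers (*Siglech*, *Ccr9*, *Ly6d* and *Tcf4*) summed to 36.4 to 44.2 CPM unstimulated, 209 to 255 CPM with LPS and 73.2 to 95.8 CPM with IFN-β, with *Siglech* and *Ly6d* under 1 CPM in every library. The 4 cDC1 markers summed to 31.8 to 38.9, 16.5 to 20.9 and 47.8 to 48.4 CPM, with *Xcr1* under 1 CPM, and the 3 cDC2 markers to 129 to 234, 54.5 to 87.6 and 97.5 to 196 CPM, with *Cd209a* under 1 CPM. The plasmacytoid sum, nearly all of it from *Ccr9* and *Tcf4*, was highest with LPS, as *Irf8* was. With *Siglech* under 1 CPM, it cannot be read as a share of plasmacytoid cells. The cDC2 sum was lowest with LPS, as *Irf4* was, and the cDC1 sum was lowest with LPS, where *Irf8* was highest. Their part in the *Irf4* and *Irf8* values was not tested.

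The count ratio of *Irf4* to *Irf8* reversed under LPS. It was 1.79, 1.99 and 2.30 in unstimulated libraries, 0.360, 0.411 and 0.417 with LPS and 1.05, 1.23 and 1.26 with IFN-β. The groups did not overlap. The log2 difference was -2.35 under LPS, -0.78 under IFN-β and 1.57 between IFN-β and LPS (exact two-sided permutation p = 0.1 each, 0.113 adjusted). These counts are not corrected for length. Per kilobase, *Irf4* was above *Irf8* with IFN-β by exon length, and *Irf8* above *Irf4* by the longest transcript. For *Irf7* over *Irf3* the ratio was 7.82, 5.80 and 1.11 unstimulated, 65.2, 53.3 and 44.8 with LPS and 65.4, 47.8 and 44.9 with IFN-β, with log2 differences of 3.86 and 3.81 (exact p = 0.1 each) and -0.05 between the stimuli (exact p = 1).

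**Figure D4:**
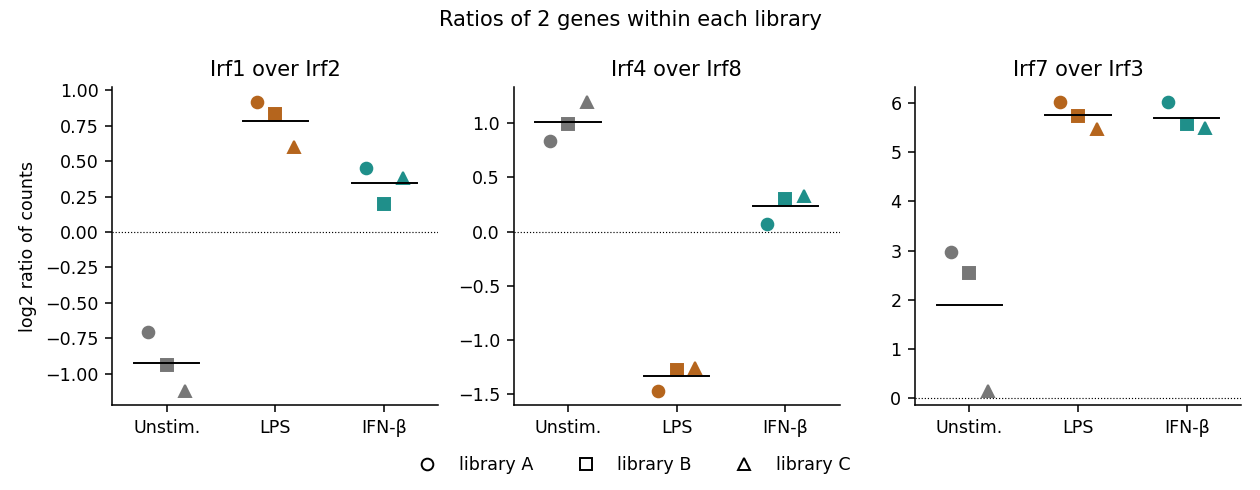
Log2 of the ratio of counts of 2 genes within each library (y axis; 0 is equal counts) for *Irf1* over *Irf2*, *Irf4* over *Irf8* and *Irf7* over *Irf3* in the 3 conditions, with group means as lines and letters as symbols. *Irf4* over *Irf8* was above 0 in all unstimulated and IFN-β libraries and below 0 in all 3 LPS libraries. Counts were not corrected for gene length.

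The genes can be ordered by level only per length, here CPM per kilobase of annotated exon. In unstimulated cells *Irf5* (106) led and was above *Irf4* (49.2) in every library, and *Irf4*, *Irf7* (37.3), *Irf8* (16.9), *Irf2* (16.1) and *Irf1* (16.0) followed with values that overlapped between neighbours. *Irf9* (10.1) and *Irf3* (8.41) came last and overlapped each other. With LPS the order was *Irf7* (377), *Irf5* (130), *Irf1* (84.7), *Irf8* (64.1), *Irf4* (36.6), *Irf2* (26.2), *Irf9* (23.3) and *Irf3* (7.61), where only *Irf2* and *Irf9* overlapped. With IFN-β it was *Irf7* (324), *Irf5* (136), *Irf1* (64.6), *Irf4* (50.5), *Irf8* (29.8), *Irf2* (27.3), *Irf9* (16.9) and *Irf3* (6.83), with no overlap between neighbours. Dividing by the longest transcript instead exchanged *Irf9* and *Irf3* unstimulated, *Irf4* and *Irf2* with LPS, and *Irf4* and *Irf8* with IFN-β.

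The summed level of the 8 genes per kilobase was 260 ± 27.1 (SD, n = 3) unstimulated, 749 ± 87.4 after LPS and 656 ± 37.0 after IFN-β. *Irf7* made up 3.82 to 21.3% of it unstimulated, and on average 50.1% with LPS and 49.3% with IFN-β. *Irf5* went from 41.1% to 17.5% and 20.8%, *Irf4* from 19.2% to 4.95% and 7.74%, and *Irf1* from 6.10% to 11.2% and 9.83%. Divided by the longest transcript instead, *Irf7* made up 42.6% with LPS and 43.2% with IFN-β. *Irf7* was the largest contributor in every stimulated library with exon lengths.

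**Figure D5:**
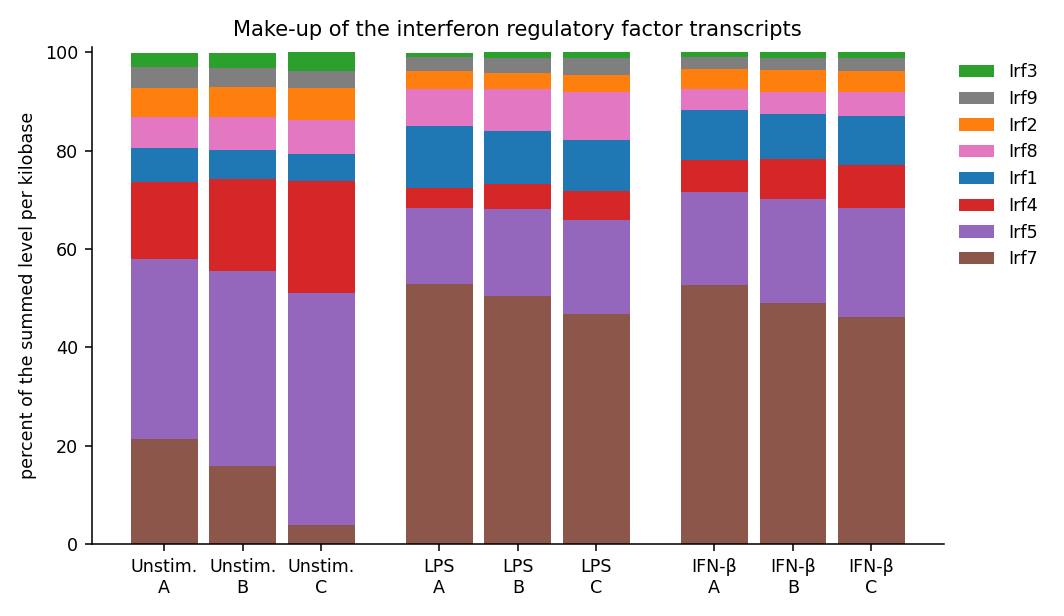
Percent of the summed level per kilobase (y axis, from 0 to 100) that each of the 8 genes made up in each of the 9 libraries (x axis), by condition and letter. *Irf7* rose from 3.82 to 21.3% in unstimulated libraries to between 46.2 and 53.0% in all 6 stimulated ones, and *Irf5* made up the largest share in every unstimulated library.

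Of 3 tested genes for IRF2-binding proteins, 2 fell under LPS and none passed the threshold under IFN-β (1 fell with a replicate block, and with library size alone 3 fell under LPS and 2 under IFN-β). Of all tested genes, 35.4% fell under LPS and 23.3% under IFN-β. *Irf2bp2*, a corepressor that binds IRF2, fell from 204 to 76.2 CPM with LPS (log2 fold change -1.42, SE 0.08, adjusted p = 9.3e-08), and was at 180 CPM with IFN-β (-0.18, SE 0.08, adjusted p = 0.09, with a replicate block 0.0366). *Irf2bpl* fell with LPS (32.2 to 17.3 CPM, -0.90, SE 0.15, adjusted p = 0.00037) and was at 35.6 CPM with IFN-β (0.14, SE 0.15, adjusted p = 0.468). *Irf2bp1* did not pass the test under LPS (0.09, adjusted p = 0.378) or under IFN-β (-0.07, adjusted p = 0.547).

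Upstream of IRF3, IRF5 and IRF7, 20 genes for receptors, adaptors and kinases were followed. LPS raised 12, lowered 7 and left 1 short of the threshold (median log2 fold change 0.56), and IFN-β raised 11, lowered 3 and left 6 (0.29). Over all tested genes, LPS raised 32.8% and lowered 35.4%, and IFN-β raised 23.6% and lowered 23.3%. With library size alone the split was 8 higher and 9 lower for LPS and 6 higher and 6 lower for IFN-β, and with a replicate block 13 were higher under IFN-β. *Cd14*, the co-receptor that hands LPS to TLR4, rose from 75.8 to 700 CPM with LPS (3.21, SE 0.09, adjusted p = 1.8e-09) and fell to 62.9 CPM with IFN-β (-0.27, SE 0.09, adjusted p = 0.0247). *Tank*, a scaffold for TBK1, rose by 2.30 with LPS and by 1.12 with IFN-β, and *Azi2*, another TBK1 adaptor, by 1.81 and 1.31. *Mavs*, the adaptor of cytosolic RNA sensors, fell by 1.30 under LPS and by 0.34 under IFN-β, and *Irak1*, a kinase of the MyD88 pathway, fell by 0.97 and by 0.44.

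Of 9 DNA-binding partners of IRF4 and IRF8, LPS raised 4 and lowered 4 and IFN-β raised 3 and lowered 2 (with library size alone 3 and 5, and 1 and 4, and with a replicate block 5 and 4, and 4 and 2). The list medians were 0.19 under LPS and 0.14 under IFN-β, and 68.2% and 46.9% of all tested genes passed the threshold. *Batf*, an AP-1 protein that joins IRF4 or IRF8 on DNA, moved in opposite directions: 12.6 CPM unstimulated, 58.4 CPM with LPS (2.21, SE 0.17, adjusted p = 9.3e-07) and 6.69 CPM with IFN-β (-0.91, SE 0.18, adjusted p = 0.00182). *Batf2* rose with both (3.20 and 2.45), and *Junb* rose as well (1.29 and 0.49). *Jun* fell under LPS (-1.50, SE 0.21, adjusted p = 7e-05) and was 0.24 under IFN-β (adjusted p = 0.349, with a replicate block 0.00187). *Spib*, an ETS partner, fell under LPS (-1.29, SE 0.18, adjusted p = 7.9e-05) and was -0.23 (adjusted p = 0.294) under IFN-β. *Tcf3* fell under both (-0.65 and -0.41).

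Among 12 genes that restrain IRFs or interferon signalling, LPS raised 8 and lowered 3 and IFN-β raised 8 and lowered 2 (medians 0.92 and 0.67, with library size alone 6 higher and 5 lower, and 7 higher and 4 lower). Of all tested genes, 32.8% were higher and 35.4% lower under LPS, and 23.6% and 23.3% under IFN-β. *Usp18*, which blocks signalling at the interferon receptor, rose from 41.1 to 1078 CPM with LPS and to 529 CPM with IFN-β (4.71 and 3.69). *Socs3*, an inhibitor of JAK kinases, rose by 3.70 and 1.11. *Trim21*, an E3 ligase that targets IRFs, rose by 3.33 and 2.06. *Eif4ebp2*, which restrains translation, *Irf7* mRNA included, fell by 1.72 under LPS and by 0.85 under IFN-β, and *Eif4ebp1* fell by 1.27 and by 0.36. These 2 genes for translational repressors were named for having the largest falls of the list, so their direction was set by that choice. Any link to *Irf7* was not tested.

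Reads for the 5 listed type I interferon genes, which IRF3 and IRF7 switch on, were few. *Ifnb1* had 0, 0 and 1 reads in unstimulated libraries, 137, 117 and 93 with LPS and 9, 5 and 9 with IFN-β, so that it was highest with LPS. *Ifna5* had 19, 10 and 12 reads with LPS and none in the other 6 libraries, and *Ifna1*, *Ifna2* and *Ifna4* had 3 reads or fewer in every library. *Ifnb1* passed the test in all 3 comparisons, and no fold is given against its near-absent unstimulated reads. The alpha genes listed here were below the count filter in the main fit, and other alpha genes were not examined.

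Most known targets of IRFs rose under both stimuli. All 12 genes with known ISREs were higher under each stimulus (medians 5.51 for LPS and 4.16 for IFN-β). With IFN-β, 9 of 12 were lower than with LPS (10 with a replicate block and 8 with library size alone). *Cxcl10* rose from 4.61 to 3616 CPM with LPS and to 602 CPM with IFN-β (9.62 and 7.03), and *Rsad2* from 47.1 to 12465 and 3503 CPM (8.05 and 6.22). Of 9 known IRF1 targets, 8 rose under each stimulus (medians 2.56 and 1.78), among them *Gbp2* (4.53 and 3.59) and *Nos2* (10.89 and 5.38). With library size alone, 8 rose and 1 fell under LPS, and 7 rose and 1 fell under IFN-β. The exception, *Ciita*, was at 88.8, 74.8 and 92.4 CPM unstimulated, 63.9, 81.4 and 95.5 with LPS, and 72.2, 70.6 and 88.3 with IFN-β. Of all tested genes, 32.8% were higher under LPS and 23.6% under IFN-β, and 23.3% were lower with IFN-β than with LPS. All 5 cytokine genes linked to IRF5 rose under LPS, whereas under IFN-β 2 of 5 rose, *Il6* (1.81, SE 0.33, adjusted p = 0.00128) and *Tnf* (1.06, SE 0.16, adjusted p = 0.00041), and all 5 were lower with IFN-β than with LPS. With a replicate block 3 of 5 rose under IFN-β. *Il23a* was at 20.3 CPM with LPS and under 0.05 CPM on average in the other groups. *Il6* reached 1629 CPM with LPS and 4.96 CPM with IFN-β. *Irf5* transcript was not separated between the stimuli (0.06, adjusted p = 0.433), and its relation to these cytokine genes was not tested.

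The genes whose pattern over the 9 libraries was most like that of each member were found among 9636 genes by the Pearson correlation of log2(CPM + 0.5), which describes these libraries and shares their conditions. *Irf7* was most like *Slfn1* (0.997) and *Ifi213* (0.996), *Irf9* most like *Oasl2* (0.996) and *Adar* (0.995), and *Irf8* most like *Hdc* (0.999) and *Slc7a2* (0.998). *Irf1* was most like *Urgcp* (0.998) and *Gbgt1* (0.998), and *Irf2* most like *Iffo2* (0.992) and *Zfp319* (0.991). *Irf4* was most like *Lima1* (0.990) and *Trpv4* (0.988), *Irf5* most like *Ralgds* (0.987) and *Gm37954* (0.977), and *Irf3* most like *Eif4g1* (0.983) and *Ybx1* (0.979). As many as 1042 genes correlated at 0.95 or more with *Irf8*, 876 with *Irf1* and 821 with *Irf9*, against 29 with *Irf3* and 32 with *Irf4*.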

How the data were processed

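RNA from 9 libraries (3 per condition) was measured. The authors trimmed reads with Trim Galore, mapped them to mouse build mm10 (GRCm38) with STAR and deposited raw read counts per GENCODE M20 gene (Trim Galore 0.6.0 and STAR 2.7.8a per the submitters' processing notes). The strand setting is not given in the sources used here. From these counts, edgeR 4.0.16 (R 4.3.3) was run on all 16260 genes kept by filterByExpr, with TMM factors, 1 term per condition over all 9 libraries, quasi-likelihood tests and Benjamini-Hochberg adjustment (threshold 0.05), and tested on simulated data. Intervals are 2 SE either side. Ratios of counts were compared by exact two-sided permutation tests. Lengths and exon overlaps were taken from GENCODE M21 of the same build, in which 55144 of 55471 identifiers were found, and promoters from RefSeq.

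Nothing in the labels says that libraries came from separate cultures or animals, so p-values measure only the spread between these libraries. The letters are not stated to mark a shared culture. In all 9 same-letter pairs the deviations from the group means correlated (0.115 to 0.470, against -0.400 to 0.028 in the 18 pairs of different letters). Because deviations within a group cancel for each gene, the different-letter values are tied to the same-letter ones and are no independent reference. The fit with letter as a replicate block is given where it changed a member's call or a printed list count. Named list genes were up to 2 in each direction with the largest log2 fold change among those past the threshold with no overlap between groups, plus genes for IRF2-binding proteins, *Stat2* and, for likeness, the 2 genes of highest correlation. *Ciita* was named after its values were seen, as the listed IRF1 target that did not rise. The members and lists were chosen with earlier results of these data known. Alternatives were DESeq2 1.42.0, other scalings and filters, only the compared groups, the block, each library left out, and, added after the data were seen, no library of letter C. Some genes are not reported here.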

Additional observations from a re-analysis of the deposited data

How the results depend on the processing

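Each of the 24 member comparisons was recomputed under 18 alternatives; 412 of these values kept direction and side of the threshold. Library size alone gave, under LPS, *Irf2* 0.12, *Irf3* -0.73 and *Irf5* -0.29, under IFN-β *Irf4* -0.27 and *Irf5* 0.05, and between IFN-β and LPS *Irf2* 0.34, *Irf3* 0.12, *Irf5* 0.34, *Irf7* 0.06 and *Irf9* -0.18. Upper-quartile factors gave *Irf3* -0.24 under LPS (past the threshold, as the -0.73 was) and *Irf4* -0.04 under IFN-β. The *Irf1* difference between stimuli (main value -0.39) passed the threshold with DESeq2 (-0.42), without the filter (-0.37), with a replicate block (-0.37) and without letter C (-0.52, chosen after seeing the data), and ranged from -0.54 (without LPS library C, also past it) to -0.22 (without LPS library A) as single libraries were left out. Leaving out single libraries gave *Irf4* under IFN-β -0.03 to 0.11, *Irf2* between stimuli -0.01 to 0.16, and the *Irf7* over *Irf3* ratio between stimuli -0.22 to 0.09. The block changed no other member's call. Requiring a log2 fold change of 1 left 4, 2 and 1 members called (LPS, IFN-β, between stimuli). The share of all tested genes past that cut is not given here, so these counts have no background. Ignoring sign, members changed by a median log2 value of 0.95, 0.75 and 0.3 in that order. Over all tested genes that median was 0.65, 0.35 and 0.38. Counts over all genes stayed within 1.5 times in 57 of 57 alternatives, and 458 of 486 list counts did so, but library size alone moved the share of higher calls from 48.1 to 21.9% (LPS), 50.3 to 22.3% (IFN-β) and 52.5 to 77.9% (between stimuli). Of 72 levels and shares, 50 moved by more than 1 SD with another length or scaling. Beyond these scalings, the cause of each change was not tested.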
